A study of Mus musculus with 4 samples.

Results

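The transcripts of the mitochondrial genome were examined in mouse embryonic fibroblasts (MEFs), primary cells grown from wild-type embryos, with and without pigment epithelium-derived factor (PEDF). Members were chosen by symbol alone, as every gene whose symbol begins with mt-, which gave 37 of the 55487 genes in the count table. These are 13 protein-coding genes, 2 rRNA genes and 22 tRNA genes. PEDF is a secreted protein of the serpin family that the study examined as a factor released by muscle. PEDF cells received 100 ng/mL of the protein, purified from mammalian cells, for 24 h, and control cells were left untreated. There was 1 control and 1 PEDF library in experiment 1 and the same in experiment 2, and the MEFs of each experiment came from different embryos, so each group has n = 2. The labels give passage 2 for all cells, whereas the paper names a later passage for this experiment. RNA was measured in bulk, so fewer cells of a type and less RNA per cell cannot be told apart.

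Mitochondrial DNA is a small circle that carries the genes for a few subunits of the respiratory chain, which passes electrons to oxygen and drives ATP synthesis, together with the rRNAs and tRNAs that translate them. Both of its strands are copied along their whole length by the polymerase Polrmt, with Tfam and Tfb2m at the promoters, and the long transcripts are cut at the tRNAs that punctuate them. Most genes are read from the heavy strand. The light-strand transcript carries only mt-Nd6 and a minority of the tRNAs. Short poly(A) tails are added to most of the mRNAs, whereas in human cells mt-Nd6 is known to lack one. The libraries were made from RNA bound through poly(A), so the counts measure RNA that passed that step and not all mitochondrial RNA.

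Total counts ranged from 14722848 to 18144640 per library, and the precision of low genes is set by this depth, where 3 counts equal 0.168 to 0.203 CPM (counts scaled to the total of the library). The 6 fibroblast markers (Col1a1, Col1a2, Vim, Thy1, Pdgfra and Pdgfrb) summed to 32140 and 37957 CPM in the control libraries and to 29593 and 32127 CPM in the PEDF libraries. Markers of other cells were present at lower summed levels, with ranges in control and PEDF libraries of 52.9 to 63.1 and 52.9 to 57.6 CPM for 4 macrophage genes and of 10.4 to 11.1 and 10.2 to 10.8 CPM for 3 endothelial genes. The ranges were 312 to 412 and 355 to 449 CPM for 4 skeletal muscle genes, 82.1 to 104.9 and 86.8 to 112 CPM for 4 cardiomyocyte genes, 41.4 to 55.4 and 42.3 to 54.0 CPM for 4 epithelial genes and 82.3 to 93.6 and 88.6 to 92.8 CPM for 3 neural genes. No marker was at 0 in all libraries. No marker was called by edgeR without a block for the experiment. With it, 3 of the 6 fibroblast markers were called lower with PEDF and 1 of the 4 skeletal muscle markers was called higher, where 3.75% of all genes were called. After length and GC trends were removed these were 2 and 1, where 2.09% of all genes were called. Within both experiments the fibroblast sum was lower with PEDF, and the skeletal muscle and cardiomyocyte sums were higher. By gene, 4 of the 6 fibroblast markers were lower in both experiments and 1 was higher in both. Of the 4 skeletal muscle markers, 3 were higher in both and 0 lower. Of the 4 cardiomyocyte markers, 2 were higher in both and 2 were lower in both, with a median log2 fold change of -0.15. Of all genes tested, 30.1% were higher and 28.8% lower in both. The part of these cells in the results, the blocked result of mt-Nd6 included, was not tested.

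The level of a mitochondrial mRNA in these data has to be read beside its sequence, because a block of chromosome 1 (GRCm38, positions 24611535 to 24616197, 4663 bases) holds 7 annotated pseudogenes that copy the stretch from mt-Co1 to mt-Nd4 in the same order on the minus strand. The authors counted uniquely mapped reads, and a read from an identical stretch has more than 1 equal place in the genome. The first 60 bases of mt-Co2, which encodes a catalytic subunit of cytochrome c oxidase (complex IV), and of its copy Gm28661 are shown because all 681 aligned bases of this pair are identical. They lie at chrMT:7013-7072 on the plus strand and at chr1:24615506-24615565 on the minus strand.
mt-Co2: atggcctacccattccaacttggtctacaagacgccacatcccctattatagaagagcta
Gm28661: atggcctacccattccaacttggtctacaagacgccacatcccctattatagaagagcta
Identity over the whole copy was also found for Gm10925 with mt-Atp6 (678 bases), Gm28437 with mt-Co3 (783 bases), Gm10222 with mt-Nd4l (294 bases) and Gm28439 with the first 876 bases of mt-Nd4. Within the aligned bases, 1 substitution separated each of the other 2 copies from its gene. It was A1066T in Gm29216, counted from the first base of mt-Co1 with the mitochondrial base first, within 483 aligned of 492 bases of the copy, whose first 9 bases did not align. The stretches below begin 3 bases before it, at chrMT:6390-6433 (plus) and chr1:24616145-24616188 (minus), with the differing base in capitals.
mt-Co1: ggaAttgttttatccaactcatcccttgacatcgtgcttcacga
Gm29216: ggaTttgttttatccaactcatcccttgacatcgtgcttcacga
In Gm28438 it was T3C, counted from the first base of mt-Nd3, within 345 aligned bases, and it is the capital letter in the stretches at chrMT:9459-9501 (plus) and chr1:24613077-24613119 (minus).
mt-Nd3: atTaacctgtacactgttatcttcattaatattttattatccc
Gm28438: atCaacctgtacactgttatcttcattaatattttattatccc
All sequences were read from the transcripts of GENCODE release M21 on GRCm38, where all 37 genes have the same positions as in the count table.

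The 5 genes with the most shared sequence were also those with low levels among the mRNAs. Of all 100-base windows in the gene, 99.5% of mt-Co2, 99.5% of mt-Atp6, 99.9% of mt-Co3, 97.6% of mt-Nd3 and 98.5% of mt-Nd4l occurred unchanged in another annotated gene, against 60.8% of mt-Nd4, 30.8% of mt-Co1, 3.19% of mt-Nd2 and 0% of the other 7 rRNA and protein-coding genes. Only annotated transcripts were searched for these windows. Levels per length (TPM, counts divided by gene length and scaled to the same sum in every library), averaged over the 4 libraries, were 12575 for mt-Co1, the largest subunit of cytochrome c oxidase, 8174 for mt-Cytb, the mitochondrial subunit of complex III, and 7054 for mt-Nd1 of complex I. The complex I genes mt-Nd2, mt-Nd6, mt-Nd4 and mt-Nd5 followed with 3075, 2945, 2370 and 2281 TPM, and the ranges over libraries of mt-Nd2 and mt-Nd6 overlapped (2940 to 3191 and 2594 to 3206 TPM), as did those of mt-Nd4 and mt-Nd5 (2226 to 2501 and 2131 to 2403 TPM). The 5 shared genes had 215 TPM (mt-Co2), 111 TPM (mt-Nd3), 54.99 TPM (mt-Co3), 31.4 TPM (mt-Atp6, a subunit of the ATP synthase) and 10.8 TPM (mt-Nd4l). A read from a shared window can be left out or placed on the copy when only unique reads are counted. How far this set the 5 levels was not tested. The same holds for mt-Nd4 and mt-Co1, which share part of their windows, so their ranks beside unshared genes carry the same limit. The lowest level was that of mt-Atp8, the other ATP synthase subunit, with 1.86 TPM from 1, 4, 2 and 2 counts in control 1, control 2, PEDF 1 and PEDF 2. It shared no 100-base window with an annotated gene, but it lies at chrMT:7766-7969, opposite a gap between the copies annotated on chromosome 1, where the genome sequence was not examined for a further copy. Of its bases, 43 also belong to mt-Atp6.

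**Figure D1:**
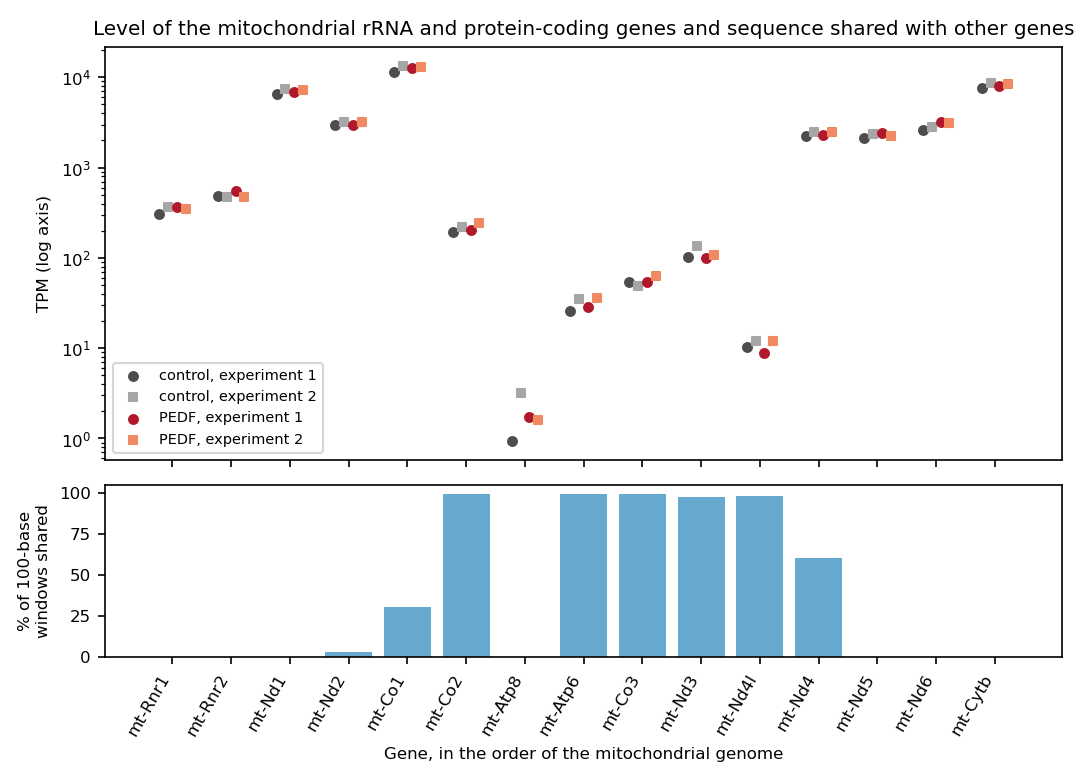
Upper panel, TPM (log axis) of the 2 rRNA and 13 protein-coding genes in the order of the mitochondrial genome, with a point for each of the 4 libraries; lower panel, percent of the 100-base windows of each gene that occur unchanged in another annotated gene. The genes from mt-Co2 to mt-Nd4l have means of 1.86 to 215 TPM and, except mt-Atp8, share 97.6% to 99.9% of their windows, and the mRNAs on either side have means of 2281 TPM or more.

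The pseudogenes had counts of their own, which exceeded those of the copied gene in 1 case. In the library order control 1, control 2, PEDF 1 and PEDF 2, Gm10925 had 205, 254, 169 and 230 counts where mt-Atp6 had 92, 147, 111 and 152. Gm28661 had 356, 443, 302 and 435 counts where mt-Co2 had 697, 938, 782 and 1021. The copy thus outnumbered the gene for mt-Atp6 in all 4 libraries, and for mt-Co2 in none. Gm28437 had 99, 112, 109 and 132 counts, Gm29216 had 43, 52, 61 and 73, and Gm28439 had 57, 49, 53 and 34. The shortest copies were the least counted, with 21, 21, 12 and 12 counts for Gm28438 and 3, 7, 2 and 2 for Gm10222. Annotated genes elsewhere also shared windows of 50 bases or more with mitochondrial genes. The most counted of those matched by symbol in the count table was Gm13340 on chromosome 2. It shares sequence with mt-Co1 and had 46, 87, 29 and 67 counts, as many in total (229) as Gm29216. A further gene that shares windows with mt-Atp6 had no match by symbol, so its counts are not given. Beside it, Gm13339 shares sequence with mt-Nd2 and Gm13341 with mt-Co2, and they had 12 and 10 counts in total. The 7 copies on chromosome 1 together took 0.00461% to 0.00533% of the counts, and none of these 10 genes passed the test between groups.

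Mitochondrial genes held 1.615%, 1.750%, 1.809% and 1.762% of the counts in control 1, control 2, PEDF 1 and PEDF 2. The share was thus lowest in control 1 and much closer among the other 3 libraries. The mean was 1.68% ± 0.0952 (SD, n = 2) in control and 1.79% ± 0.0327 (SD, n = 2) in PEDF libraries. The PEDF library was higher than its control by 0.193 percentage points in experiment 1 and by 0.0125 points in experiment 2, and the 2 control libraries differed by 0.135 points. The difference between the group means was smaller than that between the controls, which came from different embryos. Within experiment 1 the difference was larger than that between the controls, and within experiment 2 it was smaller. The ratio of the group means, 1.06, fell to 1.02 without control 1. Counted per length, the share was 3.80%, 4.27%, 4.09% and 4.23% of TPM, and here the groups overlapped. mt-Co1 alone held 0.626%, 0.704%, 0.715% and 0.697% of the counts, or 38.8% to 40.2% of all mitochondrial counts, and ranked 4 or 5 among all genes by count. The exact 95% intervals of these shares (Clopper-Pearson, counting error only) were narrow, for example 1.609% to 1.622% for all mitochondrial genes in control 1. In experiment 2, however, those of control and PEDF overlapped for mt-Co1 and lay next to each other for all mitochondrial genes.

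**Figure D2:**
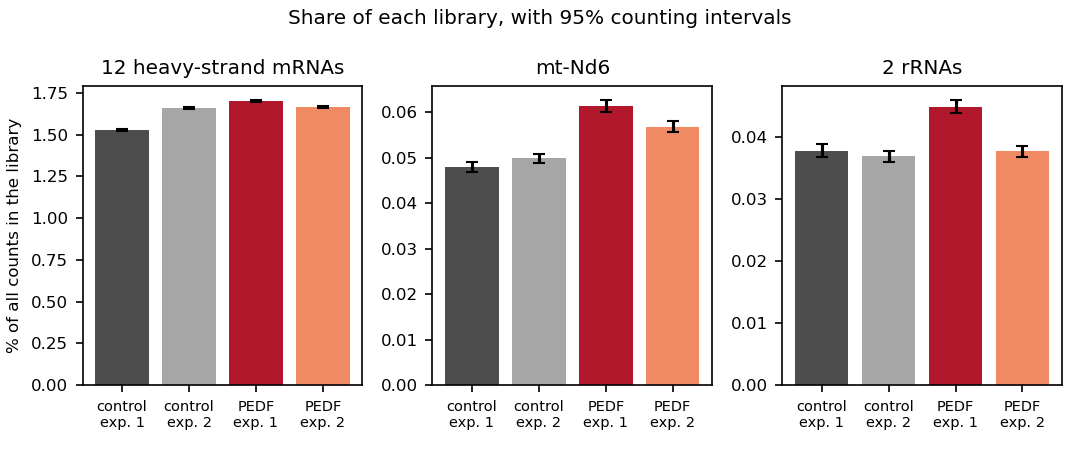
Percent of all counts in each library taken by the 12 heavy-strand mRNAs, by mt-Nd6 and by the 2 rRNAs, in bars that start at 0 with exact 95% counting intervals. The heavy-strand mRNAs held 1.526% in control 1 and 1.660% to 1.699% elsewhere, the rRNAs stood highest in PEDF 1, and mt-Nd6 was higher in both PEDF libraries than in both controls.

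No mitochondrial gene passed the test between PEDF and control. Of the 37 genes, 22 had the 10 counts in total that the test required (12 protein-coding, 2 rRNA and 8 tRNA genes). With edgeR's quasi-likelihood test, 0 of the 22 had a Benjamini-Hochberg adjusted p below 0.05, where 0.00516% of all 19384 genes tested did (1 gene). Limma on log2(TPM + 1) also called 0 of them, DESeq2 without the block called 0 of the 10 for which it gave an adjusted p, and 1 of the 22 (mt-Nd6) had an unadjusted p below 0.05 in edgeR, where 6.88% of all genes did. The median log2 fold change was 0.05 over the 22 genes and 0.06 over the 12 mRNAs tested, beside 0.0012 over all genes tested. When the experiment was entered as a block, since both libraries of an experiment came from the same MEFs, edgeR called mt-Nd6 alone among the 22, where 3.75% of all genes were called.

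mt-Nd6, the complex I subunit and the only mRNA of the light strand, was higher with PEDF in both experiments. It had 7055, 9053, 9436 and 10117 counts, or 478, 508, 607 and 568 CPM, in control 1, control 2, PEDF 1 and PEDF 2. Both PEDF libraries lay above both controls, with means of 587 ± 27.8 CPM and 493 ± 20.8 CPM (SD, n = 2). The log2 ratio of PEDF to control was 0.345 in experiment 1 (95% counting interval 0.300 to 0.389) and 0.162 in experiment 2 (0.121 to 0.203). The fitted log2 fold change was 0.25 (SE 0.07, edgeR adjusted p = 0.626) without the block and 0.25 (SE 0.04, edgeR adjusted p = 1.80e-06) with it, and DESeq2 with the block gave an adjusted p of 0.0040. The call did not hold once trends of fold change with gene length and GC content were removed in the blocked fit (0.10, SE 0.04, edgeR adjusted p = 0.206), a fit in which 2.09% of genes were called.

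mt-Nd6 ends against mt-Nd5 on the opposite strand, and the last 44 bases of each are shown because the 14 bases in capitals are the same stretch of DNA read on either strand. They lie at chrMT:13522-13565 (plus) for mt-Nd5 and chrMT:13552-13595 (minus) for mt-Nd6.
mt-Nd5: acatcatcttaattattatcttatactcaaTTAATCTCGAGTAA
mt-Nd6: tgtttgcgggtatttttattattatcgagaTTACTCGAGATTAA
The library kit keeps strand, but the strand setting of the counting is not given in the sources used here, so reads over these 14 of 519 bases may have been assigned to neither gene or to the other. If strand was not used, all counts of mt-Nd6 could also include heavy-strand RNA that runs across the gene in the opposite sense, and the values above would then not be those of mt-Nd6 mRNA alone. This was not tested. Within a library, where total depth cancels, there were 34.6, 34.5, 38.0 and 39.8 counts of mt-Nd6 per 100 of mt-Nd5, and its counts came to 3.14%, 3.01%, 3.62% and 3.42% of those of the 12 heavy-strand mRNAs. Both ratios were higher in each PEDF library than in each control. In the blocked fit the fold change of mt-Nd6 exceeded that of all 13 heavy-strand mRNAs and rRNAs tested. Its nominal 95% interval, from the standard error (0.17 to 0.34), lay wholly above the intervals of 7 of them. After length and GC trends were removed these counts were again 13 and 7. The log2 ratios of mt-Nd6 in the single experiments, 0.345 and 0.162, both lay outside its blocked interval, which thus does not cover the spread between experiments. The difference between mt-Nd6 and these genes was not tested itself.

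**Figure D3:**
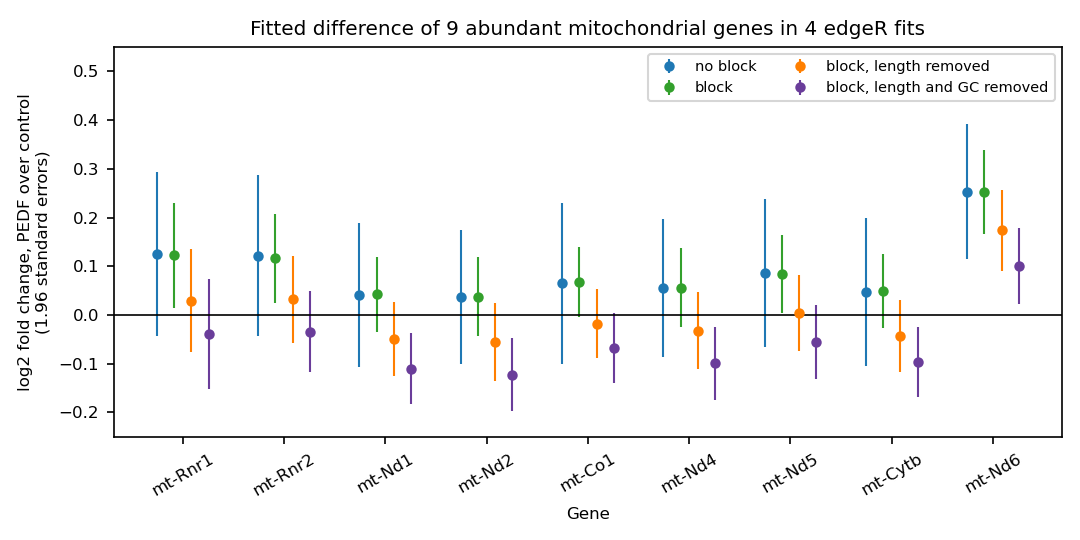
Log2 fold change of PEDF over control with nominal 95% intervals (from the standard error) for 9 abundant mitochondrial genes. Values come from edgeR fits without the block, with the block, and with the block after trends with length or with length and GC content were removed. mt-Nd6 has the highest value of the 9 in each fit, and values of the heavy-strand genes other than the rRNAs lie between 0.04 and 0.09 without correction and between -0.12 and -0.06 after both trends were removed.

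The abundant heavy-strand mRNAs (mt-Co1, mt-Cytb, mt-Nd1, mt-Nd2, mt-Nd4 and mt-Nd5) and mt-Atp6 had larger PEDF to control ratios in experiment 1 than in experiment 2. The other heavy-strand mRNAs tested did not. In experiments 1 and 2, log2 ratios were 0.091 and 0.124 for mt-Co2, 0.037 and 0.367 for mt-Co3, and -0.168 and 0.002 for mt-Nd4l. mt-Nd3 was lower in both (-0.022 and -0.333). mt-Co1 had 6249, 7161, 7071 and 6954 CPM, with log2 ratios of 0.178 in experiment 1 and -0.042 in experiment 2. mt-Nd5 had 1380, 1472, 1599 and 1428 CPM, with ratios of 0.212 and -0.044. mt-Cytb had 3095, 3397, 3331 and 3381 CPM, with ratios of 0.106 and -0.007. In these 3 genes control 1 was the lowest library and the groups overlapped. For mt-Co1 and mt-Cytb the other 3 libraries lay close together, and for mt-Nd5 PEDF 1 stood above the rest. Control 1 was the lowest library in 9 of the 12 mRNAs tested. The complex I mRNA mt-Nd1 had 2246, 2452, 2423 and 2413 CPM, mt-Nd2 had 1084, 1141, 1131 and 1151 CPM, and mt-Nd4 had 1089, 1172, 1152 and 1198 CPM. Their fitted log2 fold changes without the block were 0.04, 0.04 and 0.06, with edgeR adjusted p from 0.904 to 0.937. Within experiment 1, 10 of the 12 mRNAs were higher with PEDF and 7 had counting intervals above 0. Within experiment 2, 7 were higher, 3 had intervals above 0 (mt-Nd6, mt-Co3 and mt-Nd4) and 4 had intervals below 0 (mt-Nd1, mt-Co1, mt-Nd3 and mt-Nd5). The median log2 ratio of the 12 was 0.098 in experiment 1 and 0.0071 in experiment 2. The experiment 2 ratios rest on TMM factors of 0.983 (control 2) and 1.002 (PEDF 2), whose error the intervals do not cover. By share of all counts, without these factors, the heavy-strand mRNAs together had a PEDF to control ratio of 1.003 in experiment 2.

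**Figure D4:**
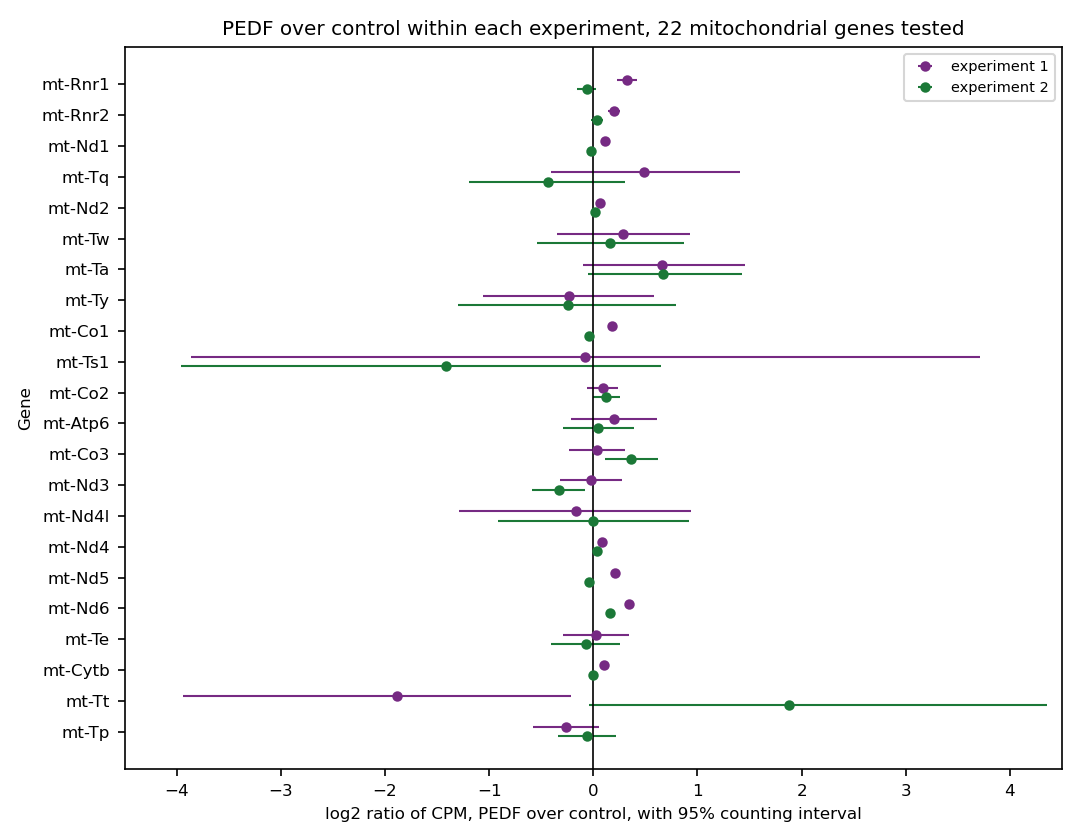
Log2 ratio of CPM, PEDF over control, within experiment 1 and within experiment 2 for the 22 genes tested, in genome order, with 95% counting intervals. The abundant mRNAs sit to the right of 0 in experiment 1 and at or near 0 in experiment 2, mt-Nd6 is to the right in both, and the intervals of most tRNAs span 0.

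Over all 22 genes, 9 were higher with PEDF in both experiments, 4 were lower in both and 9 went opposite ways, where 30.1% of all genes tested were higher and 28.8% lower in both. The groups did not overlap for 3 genes that were higher with PEDF (mt-Nd6, mt-Co3 and mt-Ta) and 1 that was lower (mt-Tp), beside 18.9% and 18.4% of all genes. mt-Co3, a complex IV subunit, had 15.1, 13.2, 15.5 and 17.1 CPM and a log2 fold change of 0.21 (SE 0.14, edgeR adjusted p = 0.781), so that its control 1 and PEDF 1 differed by less than their counting error. mt-Nd3 had 12.7, 16.3, 12.5 and 12.9 CPM, with control 2 above the rest, and a log2 fold change of -0.19 (SE 0.15, edgeR adjusted p = 0.802). mt-Co2 had 47.2, 52.6, 50.3 and 57.3 CPM, mt-Atp6 had 6.23, 8.24, 7.14 and 8.53 CPM, and mt-Nd4l had 1.08, 1.23, 0.965 and 1.24 CPM. These 5 genes share nearly all their sequence with chromosome 1, so their differences rest on the reads that could be placed.

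The rRNAs, which form the small (mt-Rnr1) and large (mt-Rnr2) subunits of the mitochondrial ribosome, were highest in PEDF 1. mt-Rnr1 had 103, 120, 129 and 114 CPM and mt-Rnr2 had 275, 256, 315 and 262 CPM. The log2 ratios for mt-Rnr1 were 0.321 in experiment 1 and -0.065 in experiment 2, and for mt-Rnr2 they were 0.200 and 0.034. Both had a fitted log2 fold change of 0.12 (SE 0.09 and 0.08, edgeR adjusted p = 0.792 for each). With the block and length and GC trends removed, the values were -0.04 and -0.03. Leaving out a library gave 0.02 to 0.24 for mt-Rnr1 and -0.02 to 0.25 for mt-Rnr2. The 2 genes together made up 2.11% to 2.48% of the mitochondrial counts after poly(A) selection, and their counts came to 2.22% to 2.64% of those of the heavy-strand mRNAs.

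tRNA genes gave few counts, between 474 and 509 per library, and most were assigned to genes of the light-strand transcript. Their strand of origin holds only if the counting used strand, which is not given in the sources used here. Of the 8 light-strand tRNA genes, 6 had 10 or more counts in total and 1 was at 0 in all libraries, whereas 11 of the 14 heavy-strand genes were at 0 in all 4. A count of 0 allows up to 3 counts, or 0.168 to 0.203 CPM. The other 2 were mt-Tn, with 2, 3, 2 and 2 counts, and mt-Th, with 1 count in PEDF 2. Light-strand genes held 88.8%, 92.7%, 88.9% and 90.04% of the tRNA counts in control 1, control 2, PEDF 1 and PEDF 2, a range in which the groups overlap. The leading members were mt-Tp (proline), with 181, 219, 159 and 210 counts, and mt-Te (glutamate), with 164, 158, 176 and 150. mt-Tw (tryptophan) led the heavy-strand genes with 39, 34, 50 and 38 counts. The whole genes are shown because their lengths, 67 to 69 bases, are short beside a sequenced fragment, so that counts assigned to them may belong to longer transcripts. They lie at chrMT:15356-15422 (minus), chrMT:14071-14139 (minus) and chrMT:4950-5016 (plus).
mt-Tp: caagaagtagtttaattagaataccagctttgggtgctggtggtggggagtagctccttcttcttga
mt-Te: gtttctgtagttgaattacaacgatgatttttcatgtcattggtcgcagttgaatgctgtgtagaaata
mt-Tw: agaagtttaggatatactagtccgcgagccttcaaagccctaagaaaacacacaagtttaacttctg
mt-Te and mt-Nd6 adjoin on the same strand, with 0 bases between them, and mt-Tw shares 2 bases with mt-Nd2.

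None of the 8 tRNA genes tested passed the test between the groups. mt-Ta (alanine) had 24, 27, 40 and 43 counts and was higher in both PEDF libraries, with a log2 fold change of 0.67 (SE 0.34, edgeR adjusted p = 0.738). mt-Tp was lower in both, at 10.2 and 11.8 CPM against 12.3 CPM in each control (log2 fold change -0.15, SE 0.15, edgeR adjusted p = 0.864). mt-Te had 11.1, 8.86, 11.3 and 8.42 CPM, so that both libraries of experiment 1 lay above both of experiment 2. mt-Tw had a log2 fold change of 0.24 (SE 0.33, edgeR adjusted p = 0.913). The remaining tested tRNA genes were mt-Tq with 19, 38, 28 and 28 counts, mt-Ty with 29, 19, 26 and 16, mt-Tt with 14, 3, 4 and 11 and mt-Ts1 with 2, 8, 2 and 3. Their fitted log2 fold changes ran from -0.97 to -0.04, and none was called. How small a difference these low counts could show was not tested.

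**Figure D5:**
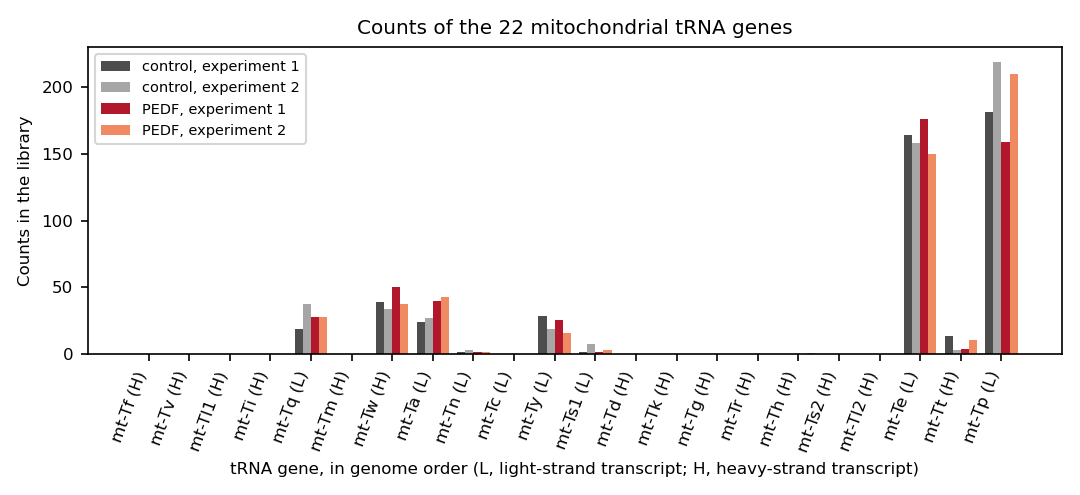
Counts of the 22 mitochondrial tRNA genes in each of the 4 libraries, in genome order, with L for genes of the light-strand transcript and H for those of the heavy-strand transcript. mt-Te and mt-Tp, both marked L, have 150 counts or more in every library, and all others stay at or below 50.

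The nuclear genes that copy, transcribe and process mitochondrial DNA and RNA showed no call without the block. All 37 genes of the list were tested, their median log2 fold change was 0.04, and 1 had an unadjusted p below 0.05, where 6.88% of all genes did. With the block 0 rose and 1 fell, where 3.75% of all genes were called, so the list's share was not above that of all genes. The gene called was Polg, the catalytic subunit of the mitochondrial DNA polymerase, with 72.8, 77.9, 63.3 and 67.8 CPM (log2 fold change -0.20, SE 0.06, edgeR adjusted p = 0.0423 with the block and 0.531 after length and GC trends were also removed). The RNA polymerase Polrmt had 44.1, 49.3, 41.9 and 47.0 CPM, Tfam, which packages the DNA and activates its promoters, had 33.8, 30.9, 34.5 and 32.2 CPM, and the promoter factor Tfb2m had 14.4, 17.04, 17.4 and 14.9 CPM. Their log2 fold changes were -0.07, 0.04 and 0.03. The elongation factor Tefm had 6.44, 6.11, 8.43 and 6.57 CPM (log2 fold change 0.25, SE 0.19). Lrpprc and Slirp, which form a complex that stabilises the heavy-strand mRNAs, had log2 fold changes of -0.12 (SE 0.08) and 0.07 (SE 0.09). edgeR adjusted p for these 6 genes ran from 0.777 to 0.977.

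The nuclear subunits that assemble with the mitochondrial ones had a median log2 fold change of 0.10 over 76 tested of 77, beside 0.06 for the 12 mitochondrial mRNAs. None was called without the block, 12 had an unadjusted p below 0.05 (6.88% of all genes), and with the block 11 rose and 0 fell, where 3.75% of all genes were called in either direction. After length and GC trends were removed, 2 were called, a share near the 2.09% of all genes called in that fit. The median log2 fold changes in that fit were 0.03 for the nuclear subunits and -0.08 for the mitochondrial mRNAs. The 6 with the smallest p in the blocked fit were the ATP synthase subunits Atp5pb, Atp5l, Atp5md and Atp5c1 (log2 fold changes 0.24, 0.28, 0.25 and 0.18), the complex I subunit Ndufc2 (0.32) and the complex IV subunit Cox7b (0.24). edgeR adjusted p with the block ran from 0.000103 (Atp5pb) to 0.0146 (Atp5c1) among these 6. After length and GC trends were removed, 0 nuclear subunits of complex I and complex IV were called, so Ndufc2 and Cox7b were not. Both remaining calls were in complex V. Atp5pb had 200.3, 185, 236 and 219 CPM, and both PEDF libraries lay above both controls. The difference between the nuclear and the mitochondrial lists was not tested.

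The mitochondrial genes are low in GC content and short beside most genes tested, the properties that the corrections used. GC content was 31.9% to 41.1% in the 15 mRNA and rRNA genes, beside a median of 49.8% over all genes tested, of which 9.52% lie below 41.1%. Their lengths were 204 to 1824 bases, beside a median of 3614, and 23.6% of the genes tested were shorter than the longest of them. In the fit with both trends removed, the median log2 fold change of the 12 mRNAs was -0.08, and 10 of the 12 had values below 0, where 10 had values above 0 without correction. In that fit 6 of the 22 genes had an unadjusted p below 0.05, as did 2234 of all 19363 genes. They were mt-Nd6, with a value above 0, and mt-Nd1, mt-Nd2, mt-Nd3, mt-Nd4 and mt-Cytb, with values below 0, and the smallest edgeR adjusted p was 0.0574 (mt-Nd2). The sign thus changed with this setting in 8 of the 11 heavy-strand mRNAs tested, and it stayed the same in mt-Co3, mt-Nd3, mt-Nd4l and mt-Nd6.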

How the data were processed

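Polyadenylated RNA of 4 MEF libraries was converted to directional libraries and sequenced as paired reads. Per the labels and the study's methods, the authors checked reads with FastQC 0.11.7, trimmed them with Trimmomatic 0.38, aligned them with HISAT2 2.1.0 (build mm10), converted the alignments with SAMtools 1.9 and used featureCounts 1.6.3 to count the reads that mapped uniquely to each gene. The annotation and strand setting are not given in the sources used here. The authors deposited these counts without normalization, together with TPM values, whose conversion is not described. In all 15 mRNA and rRNA genes the deposited TPM followed counts divided by gene length.

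Counts were tested in R 4.3.3 with edgeR 4.0.16 (TMM factors, robust quasi-likelihood test), without a covariate. The 19384 genes whose counts summed to 10 or more entered the Benjamini-Hochberg adjustment. The fit was also made with the experiment as a replicate block, because both libraries of an experiment came from the same embryos, per the series' design text. Control and PEDF differences between the experiments correlated across genes at r = 0.423 (10722 genes, mean log2 CPM over 3). Alternatives were DESeq2 1.42.0, limma 3.58.1 on log2(TPM + 1), other factors and filters, each library left out, and the block with a spline of 5 degrees of freedom on log length or on log length and GC content. Standard errors were derived from the fold change and its F statistic. The fits were run on simulated data with 200 genes changed 4-fold and no difference between experiments. That simulation did not cover changes as small as those seen here, nor the blocked fits under differences between experiments. Without the block, p-values measure the spread between 2 libraries per group. With it, they measure how the PEDF difference varied between the 2 experiments. In both cases edgeR shares the estimate of spread across genes. Ratios within an experiment carry counting error only. Gene sequences came from GENCODE release M21. Windows of 100 bases were compared with all annotated transcripts. The mt- genes were all accounted for, a tRNA gene was named at 10 or more counts, and of the nuclear lists preset genes and the calls with the block were named (at most 6 for the respiratory chain). Members and lists were chosen with earlier results of these data known. The closing section gives the effect of the alternatives.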

Additional observations from a re-analysis of the deposited data

How the results depend on the processing

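The number of mitochondrial genes called was 0 in edgeR without the block and stayed at 0 with RLE factors, DESeq2, limma, other filters, library sizes without mitochondrial genes and each library left out (0 to 0). It was 1 (mt-Nd6) with the replicate block in edgeR, in DESeq2 and with a length correction, and 0 with length and GC correction. The log2 fold change of mt-Nd6 ranged from 0.10 to 0.30 over all settings, with adjusted p from 1.80e-06 to 0.999. Calls over all genes numbered 1 in edgeR, 4 in DESeq2, 106 without a filter, 0 with filterByExpr, 0 in limma, 726 with the replicate block, 117 with it in DESeq2, 418 with it and length and 405 with it, length and GC. They were 8 to 332 with a library left out, the highest without control 1, while 10 and 103 were called without PEDF 1 and PEDF 2. The median log2 fold change of the mitochondrial mRNAs, 0.06, became -0.0251 with length and -0.0822 with length and GC correction, and ranged from -0.00889 (without control 1) to 0.112 with a library left out. The ratio of mitochondrial shares, 1.06, ranged from 1.02 (without control 1) to 1.11.

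Signs reversed with the replicate block and length and GC correction in mt-Rnr1 (-0.0385), mt-Rnr2 (-0.0348), mt-Nd1 (-0.11), mt-Tq (0.000852), mt-Nd2 (-0.122), mt-Co1 (-0.0676), mt-Co2 (-0.0382), mt-Atp6 (-0.0427), mt-Nd4 (-0.0992), mt-Nd5 (-0.0551) and mt-Cytb (-0.0969), and with the block and length alone in mt-Nd1 (-0.0497), mt-Tq (0.0567), mt-Nd2 (-0.0554), mt-Co1 (-0.0175), mt-Nd4 (-0.0327), mt-Te (0.0568) and mt-Cytb (-0.0425). In DESeq2 with the block the sign reversed in mt-Tq (0.0103). Leaving out a library gave log2 fold changes that crossed 0 for mt-Rnr2 (-0.0169 to 0.25), mt-Nd1 (-0.0201 to 0.106), mt-Tq (-0.339 to 0.384), mt-Nd2 (-0.000166 to 0.0742), mt-Tw (-0.0823 to 0.51), mt-Ty (-0.732 to 0.255), mt-Co1 (-0.0304 to 0.166), mt-Ts1 (-1.54 to 0.134), mt-Atp6 (-0.0691 to 0.333), mt-Nd4l (-0.266 to 0.0868), mt-Te (-0.24 to 0.188), mt-Cytb (-0.0176 to 0.116) and mt-Tt (-1.08 to 1.36). The cause was not tested. A fit without a library takes the lone one to vary like the other group. The replicate block changed no other call among the mitochondrial genes. With 2 libraries per group and no block, changes of the size seen in the heavy-strand mRNAs could not be told from the spread between controls, which came from different embryos. With the block, 0 of the heavy-strand mRNAs were called, and mt-Nd5 had an unadjusted edgeR p of 0.039 (adjusted 0.302). mt-Ts1 could not be fitted under filterByExpr, which dropped it.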
